A study of Mus musculus with 6 samples.

Results

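The nuclear subunits of respiratory complexes II to V, together with cytochrome c, were followed in mouse hearts with and without conditional deletion of Ythdc1. The genes were chosen by symbol from a list of subunits and number 41 of the 54532 genes measured: 4 of complex II, 9 of complex III, the somatic cytochrome c gene Cycs, 12 of complex IV and 15 of complex V. Subunits encoded in the mitochondrial genome are not among them and are given for comparison. Messenger RNA was sequenced from hearts in 6 libraries. The flox control group holds 3 libraries from Ythdc1flox/flox mice, and the CKO group holds 3 libraries from Ythdc1-CKO mice, which the series text calls HKO. Both groups had 15 days of normal chow, and the labels describe the replicates as biologically independent. Age, sex, the deleted part of the gene, the Cre driver and the cells in which deletion took place are not in the labels. Ythdc1 encodes a nuclear protein that binds N6-methyladenosine in RNA, and the comparison asks how the heart's transcripts change in its absence.

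The respiratory chain sits in the inner mitochondrial membrane and is packed densely in the heart, which makes most of its ATP this way. Complex II (succinate dehydrogenase) passes electrons from succinate to ubiquinone, complex III passes them on to cytochrome c, and complex IV (cytochrome c oxidase) gives them to oxygen. Complex V (ATP synthase) uses the proton gradient built by the chain to make ATP. Complex II is encoded wholly in the nucleus, whereas complexes III, IV and V combine nuclear subunits with a few made inside the mitochondrion. Some subunits of complex IV come in a heart and muscle isoform and a ubiquitous isoform, and subunit c of ATP synthase is made from several genes.

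Gene-assigned reads, recovered from the deposited FPKM values (fragments per length of gene and per scaling value of the library), numbered 17434296 to 19360428 per library. The scaling value was not the total of these reads. It was 1.99e+07 in flox control 3, with 19011019 reads, and 1.81e+07 in CKO 3, with 19360428 reads. What set it is not given in the sources used here. Ythdc1 itself measured 4.31, 3.64 and 4.10 FPKM across flox controls 1 to 3, against 2.39, 2.57 and 2.34 FPKM across CKO 1 to 3, so every CKO library lay below every control (log2 fold change -0.54, SE 0.09, limma adjusted p = 0.015). That call of Ythdc1 was lost without flox control 1 (0.0712), flox control 3 (0.0648) or CKO 3 (0.054). Setting every library to the same sum ended it too (0.0944, or 0.0873 with the same genes tested), as did scaling to the same cardiomyocyte marker level (0.178) and the replicate block (0.0542). The value sums all exons, including any outside the deleted part. CKO 3 stood apart in its sex-linked expression, with 4037 Xist reads against 0 to 5 in the other libraries and 0.3503 FPKM of Ddx3y, a gene on the Y chromosome, where the others had 10.8 to 15.9 FPKM. Results are therefore also given without it. The share of reads from the mitochondrial genome was 18.4% to 21.02% in the controls and 20.7%, 14.4% and 19.6% across CKO 1 to 3. All 11 cardiomyocyte markers were measured in every library. They summed to 13978 to 15634 FPKM in the controls and 11107 to 15712 FPKM in CKO hearts. Of them 1, Tnni3, was called lower (9.09%, beside 5.49% of all genes). For 3 (27.3%: Tnni3, Ryr2 and Pln) every CKO heart lay below every control, beside 17.4% of all genes, and the other 8 overlapped. Fibroblast markers summed to 476 to 615 FPKM in controls and 546 to 789 FPKM in CKO hearts. Of 7, 1 (Tcf21) was called higher, beside 5.69% of all genes. For 4 (Col1a1, Col1a2, Pdgfra and Tcf21) every CKO heart lay above every control, beside 16.9% of all genes, and the other 3 overlapped. Of 4 atrial markers, 3 were lower in every CKO heart than in any control: Myl7 averaged 151 FPKM in controls and 34.7 FPKM in CKO hearts (limma adjusted p = 0.0631), Myl4 21.3 and 3.73 FPKM (0.0534), and Sln, the 1 of them that was called, 15.3 and 1.53 FPKM (0.0436). Flox control 2 was the lowest control for all 4, and Nppa was called higher, at a mean of 125 FPKM in controls and 1170 FPKM in CKO hearts (0.0185). Their part in the results was not tested. Skeletal muscle markers summed to at most 1.07 FPKM in any library, and Myod1, the muscle determination gene, was at 0 in all 6.

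Nuclear subunit transcripts of complexes II to V were mostly at lower levels in CKO hearts, by a modest amount. The 41 genes had a median log2 fold change of -0.36 (range -1.15 to 0.34), where the median of all 12144 genes tested was 0.01. That 0.01 depends on the deposited scaling, under which the median gene stood at 0.989 to 1.002 times the control mean in every library. The fall of the members is therefore a fall relative to all genes. Fold changes were negative for 38 of the 41 genes, against 48.9% of all genes. For 20 of the 41 every CKO library lay below every control (separated, in what follows), where 17.4% of all genes were separated in that direction, and none lay wholly above. Few single genes passed the test over all genes (limma, adjusted p under 0.05): Sdhc of complex II, Uqcrc1 and Uqcrfs1 of complex III and Cox7a1 of complex IV fell, the other 37 did not pass and none rose. These 4 make up 9.76% of the members, beside 5.49% of all genes called lower, 5.69% called higher and 11.2% called in either direction. At an unadjusted p under 0.05 stood 17 members, each with a negative fold change, and voom (limma's count model) on the recovered reads called the same number, 4 lower and 0 higher. In bulk heart RNA, fewer cardiomyocytes and less of these transcripts per cardiomyocyte cannot be told apart.

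The 6 libraries did not separate evenly. Relative to the control mean of each gene, the median member stood at 1.01, 1.10 and 0.903 across flox controls 1 to 3, against 0.724, 0.699 and 0.913 in CKO 1 to 3. By FPKM, CKO 3 therefore sat beside flox control 3, while CKO 1 and CKO 2 lay below all controls. CKO 1 was below every control in 37 of 41 genes, CKO 2 in 38 and CKO 3 in 20. Within the controls, flox control 2 was highest in 37 genes and flox control 3 lowest in 38. Among CKO hearts, CKO 3 was highest in 40 genes. Summed over the members, reads made up 3.40%, 3.64% and 3.30% of the library in the controls and 2.51%, 2.60% and 2.93% in CKO 1 to 3. The groups did not overlap by that measure, which divides by all gene-assigned reads and not by the scaling value behind the FPKM. CKO 3 was also the highest CKO library for the cardiomyocyte markers, whose medians were 0.759, 0.830 and 1.03 times the control mean in CKO 1 to 3, with a median log2 fold change of -0.27. Macrophage markers were at 2.82 times the control mean in CKO 1 and at 0.755 and 0.499 times in CKO 2 and CKO 3. The part of both marker lists in the result was not tested. Without CKO 3 the median log2 fold change of the members was -0.50, and 3 genes were called lower (Atp5h, Uqcrc1 and Uqcrfs1). Leaving out CKO 1 or CKO 2 left 1 call each (Cox7a1), and leaving out any 1 control left 0, with 9, 9 and 17 members at an unadjusted p under 0.05 without flox controls 1, 2 and 3. Of all genes tested, 5.71%, 2.85% and 2.52% were called lower without CKO 1, 2 and 3. Without flox controls 1, 2 and 3 that share was 1.25%, 2.40% and 1.85%, so few calls among 41 genes would be usual there.

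**Figure D1:**
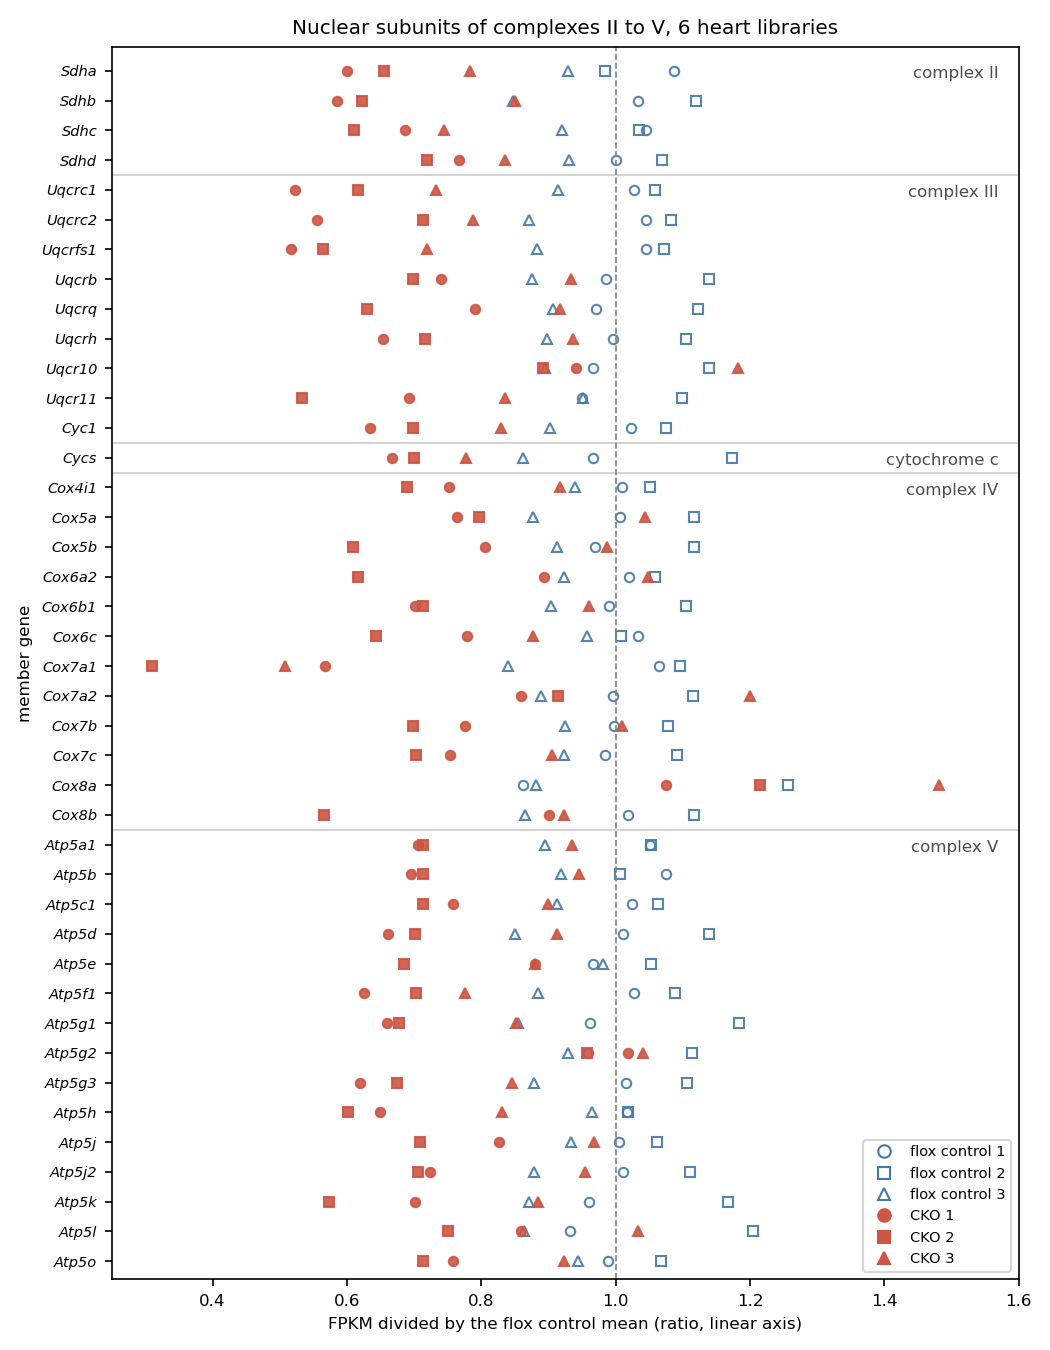
FPKM of each of the 41 genes divided by its flox control mean (x axis, ratio, linear), 1 row per gene grouped by complex (y axis); open blue symbols are the 3 flox controls, filled red symbols the 3 CKO libraries, and the dashed line marks the control mean. CKO 1 and CKO 2 (circles and squares) lie left of the controls in most rows, CKO 3 (triangles) often overlaps flox control 3, and Cox7a1 and Cox8a stand out to the left and right.

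Promoter letters were read for the genes on which the results below turn: the isoform pairs Cox7a1 with Cox7a2 and Cox8b with Cox8a, whose members differed in their fold changes, Atp5g3, the main gene for subunit c of ATP synthase, and Uqcrc1, a called gene. RefSeq (GRCm38.p6) gave a start for 32 of the 41 members. Each window holds 250 bases before that start and up to 30 after it, written 5′ to 3′ on the gene's strand, and is shortened where more than 30 bases would lie in an exon of GENCODE release M21. Capitals mark matches to a searched motif on either strand.
Cox7a1 (chr7:30183921-30184173, plus strand): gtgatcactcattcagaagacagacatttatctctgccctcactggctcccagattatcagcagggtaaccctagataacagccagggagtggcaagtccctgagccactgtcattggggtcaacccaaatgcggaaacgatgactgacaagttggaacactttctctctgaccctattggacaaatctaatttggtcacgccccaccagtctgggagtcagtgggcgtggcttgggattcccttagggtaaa
Cox7a2 (chr9:79759849-79760103, minus strand): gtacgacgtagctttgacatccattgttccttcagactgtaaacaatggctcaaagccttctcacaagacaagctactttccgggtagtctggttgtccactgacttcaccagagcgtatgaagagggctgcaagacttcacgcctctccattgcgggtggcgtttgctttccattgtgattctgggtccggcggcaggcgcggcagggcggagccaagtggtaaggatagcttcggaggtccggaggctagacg
Cox8b (chr7:140900417-140900696, minus strand): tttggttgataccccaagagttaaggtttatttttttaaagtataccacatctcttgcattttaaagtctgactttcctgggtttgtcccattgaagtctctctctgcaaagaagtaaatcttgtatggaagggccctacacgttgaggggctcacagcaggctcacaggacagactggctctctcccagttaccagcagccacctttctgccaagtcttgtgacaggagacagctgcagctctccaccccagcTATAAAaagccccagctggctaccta
Cox8a (chr19:7217587-7217866, minus strand): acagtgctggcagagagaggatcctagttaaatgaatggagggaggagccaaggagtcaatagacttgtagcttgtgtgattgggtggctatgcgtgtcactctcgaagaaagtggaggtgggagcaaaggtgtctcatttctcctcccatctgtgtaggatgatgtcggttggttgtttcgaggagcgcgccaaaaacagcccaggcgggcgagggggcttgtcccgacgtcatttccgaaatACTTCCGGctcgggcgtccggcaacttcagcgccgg
Atp5g3 (chr2:73911297-73911576, minus strand): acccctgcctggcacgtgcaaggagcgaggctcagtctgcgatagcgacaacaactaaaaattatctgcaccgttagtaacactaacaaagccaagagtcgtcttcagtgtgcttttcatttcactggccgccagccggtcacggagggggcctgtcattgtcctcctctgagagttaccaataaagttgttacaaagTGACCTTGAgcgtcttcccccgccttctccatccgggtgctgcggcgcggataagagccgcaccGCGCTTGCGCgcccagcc
Uqcrc1 (chr9:108936398-108936662, plus strand): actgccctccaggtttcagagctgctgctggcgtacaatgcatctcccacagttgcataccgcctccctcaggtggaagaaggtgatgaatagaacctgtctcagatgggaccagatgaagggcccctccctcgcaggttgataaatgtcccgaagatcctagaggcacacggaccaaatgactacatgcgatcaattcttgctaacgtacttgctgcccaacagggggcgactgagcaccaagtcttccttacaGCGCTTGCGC
The searched letters were GCGCA and GCGC with 1 base between them for NRF1, CCGGAAGT for the ETS factor GABP, AAGATGGCG for YY1, TCAAGGTCA for the estrogen-related receptors (ERR), GGGCGGGG for SP factors and TATAAA, the letters of a TATA box, the last added after the sequences were seen. None of these motifs contains another. Capitals stand for the letters TATAAA in Cox8b, which begin at base 5 after the RefSeq start, for the ETS motif in Cox8a, ERR and then NRF1 in Atp5g3, and NRF1 in Uqcrc1, while the windows of Cox7a1 and Cox7a2 held no match. In the full windows of 280 bases, NRF1 letters stood in 9 of 32 members (28.1%: Atp5c1, Atp5g2, Atp5g3, Atp5h, Atp5k, Atp5o, Sdha, Sdhd and Uqcrc1), against 4.98% of 27025 genes with a window. The ETS motif stood in 4 members (12.5%: Atp5h, Cox8a, Uqcr11 and Uqcrh), against 4.12% of genes. SP letters stood in 5 members (15.6%) against 19.2%, TATAAA in 2 (6.25%) against 15.1%, YY1 in 1 (3.12%) against 1.22% and ERR in 1 (3.12%) against 0.459%. Matching letters are a description of these windows and do not show that a factor binds there.

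Complex II had 4 of 4 genes below zero, with a median log2 fold change of -0.55, and 1 was called. Sdhc, a membrane anchor subunit (ENSMUSG00000058076, chromosome 1, 171127165 to 171150603, minus strand), measured 137, 136 and 121 FPKM across flox controls 1 to 3, against 90.2, 80.2 and 97.8 FPKM across CKO 1 to 3. All 3 CKO libraries lay below all controls, with means of 131 ± 9.16 and 89.4 ± 8.86 FPKM (SD, n = 3 each). It fell by 0.55 on the log2 scale (SE 0.12, limma adjusted p = 0.0348). Sdha, the flavoprotein that oxidizes succinate, measured 358, 325 and 306 FPKM across flox controls 1 to 3, against 198, 216 and 258 FPKM across CKO 1 to 3, again without overlap, and missed the threshold (log2 fold change -0.56, limma adjusted p = 0.0569). Sdhd, the other anchor, was also separated (400 ± 27.5 and 309 ± 23.5 FPKM, log2 fold change -0.37, adjusted p = 0.121). The iron-sulfur subunit Sdhb was not, since CKO 3 (229 FPKM) matched flox control 3 (228 FPKM). The summed level of the 4 genes was 1130 ± 89.3 FPKM in controls and 807 ± 96.3 FPKM in CKO hearts. The Sdhc call was lost when any 1 library was left out (adjusted p from 0.0564 without CKO 3 to 0.133 without flox control 1).

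In complex III the Rieske protein and a core protein fell, and the small subunit Uqcr10 had nearly equal means in the groups. Uqcrfs1, the Rieske iron-sulfur protein that hands electrons to cytochrome c1 (ENSMUSG00000038462, chromosome 13, 30540308 to 30545362, minus strand), measured 715, 733 and 604 FPKM across flox controls 1 to 3, against 354, 386 and 492 FPKM across CKO 1 to 3. The groups did not overlap, CKO 3 being the nearest to the controls, and the transcript fell by 0.74 on the log2 scale (SE 0.18, limma adjusted p = 0.0435). Uqcrc1, a core protein (ENSMUSG00000025651, chromosome 9, 108936633 to 108949623, plus strand) whose promoter is printed above, measured 323, 333 and 287 FPKM across flox controls 1 to 3, against 164, 194 and 230 FPKM across CKO 1 to 3. It too was separated in all 6 libraries and fell by 0.69 (SE 0.16, limma adjusted p = 0.0406), from 314 ± 24.0 to 196 ± 33.0 FPKM. Both calls were lost without any 1 flox control or without CKO 1 or CKO 2, with adjusted p up to 0.14 for Uqcrc1 and 0.152 for Uqcrfs1 without flox control 1, and both held without CKO 3.

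The other 7 genes of complex III did not pass. Separated groups were seen for the second core protein Uqcrc2 (310 ± 35.0 and 213 ± 37.0 FPKM, log2 fold change -0.55, limma adjusted p = 0.093), for cytochrome c1, Cyc1 (442 ± 38.9 and 319 ± 43.8 FPKM, -0.48, 0.0988), and for the small subunit Uqcr11 (506 ± 43.1 and 347 ± 76.7 FPKM, -0.56, 0.115). Uqcrh, Uqcrq and Uqcrb, small accessory subunits, overlapped with the controls through CKO 3 and had log2 fold changes of -0.39, -0.37 and -0.34. Uqcr10, a further small subunit, measured 449, 529 and 416 FPKM across flox controls 1 to 3, against 437, 415 and 549 FPKM across CKO 1 to 3, with a ratio of means of 1.01 (log2 fold change 0.00, SE 0.17). Its CKO 3 value was the highest of all 6 libraries. Complex III as a whole had a median log2 fold change of -0.48 and 5 of 9 separated genes. Cycs, cytochrome c itself, measured 190, 231 and 170 FPKM across flox controls 1 to 3, against 131, 138 and 153 FPKM across CKO 1 to 3. The groups were separate, though the transcript did not pass (log2 fold change -0.47, SE 0.15, limma adjusted p = 0.0928).

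Complex IV ranged most widely, from the lowest to the highest fold change among the 41 genes. Its 12 genes had a median log2 fold change of -0.34, with 4 separated and 1 called. Cox7a1, the heart and muscle isoform of subunit VIIa (ENSMUSG00000074218, chromosome 7, 30184144 to 30186078, plus strand), measured 710, 731 and 560 FPKM across flox controls 1 to 3, against 378, 207 and 339 FPKM across CKO 1 to 3. Every CKO library lay well below the lowest control, CKO 2 the furthest. The transcript fell by 1.15 on the log2 scale (SE 0.26, limma adjusted p = 0.0361), from 667 ± 93.4 to 308 ± 89.9 FPKM. This call held without CKO 1 or CKO 2 and was lost without flox control 1 (0.129), 2 (0.108) or 3 (0.0785) or CKO 3 (0.0729). Cox7a2, the ubiquitous partner of Cox7a1, measured 362, 405 and 323 FPKM across flox controls 1 to 3, against 313, 332 and 436 FPKM across CKO 1 to 3, so that the CKO values spanned the control range (log2 fold change -0.02, SE 0.18).

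Cox8a, the ubiquitous isoform of subunit VIII, had the highest of the 3 positive fold changes among the members, and it did not pass. It measured 303, 442 and 310 FPKM across flox controls 1 to 3, against 378, 427 and 521 FPKM across CKO 1 to 3 (log2 fold change 0.34, SE 0.21, limma adjusted p = 0.336). Flox control 2 lay among the CKO libraries. Its muscle partner Cox8b measured 926, 1016 and 786 FPKM across flox controls 1 to 3, against 819, 515 and 840 FPKM across CKO 1 to 3, with only CKO 2 clearly below (log2 fold change -0.35, adjusted p = 0.38). Of the other complex IV subunits, Cox4i1, a large subunit that takes part in regulation by ATP (966 ± 54.1 and 760 ± 114 FPKM), Cox6c (205 ± 7.91 and 157 ± 24.1 FPKM) and Cox7c (434 ± 37.0 and 342 ± 45.6 FPKM) were separated without passing. Cox5a, Cox5b, Cox6a2, Cox6b1 and Cox7b overlapped, each with CKO 3 above the lowest control, and had log2 fold changes from -0.35 to -0.21. Cox6a2, the muscle isoform of subunit VIa and the most abundant complex IV member by FPKM, spread in CKO hearts from 897 FPKM in CKO 2 to 1525 FPKM in CKO 3, against 1342 to 1539 FPKM in controls.

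Isoform shares compare the partners within each library and so do not depend on the scaling between libraries. The muscle isoform Cox7a1 made up 66.3%, 64.3% and 63.4% of the summed Cox7a1 and Cox7a2 FPKM across flox controls 1 to 3, against 54.8%, 38.3% and 43.7% in CKO 1 to 3. All CKO shares were lower, at 45.6% ± 8.37 against 64.7% ± 1.46 (SD, n = 3 each), while the summed level of the pair was 1031 ± 132 and 668 ± 120 FPKM. Cox8b made up 72.3% ± 2.85 of Cox8a plus Cox8b in controls and 61.6% ± 6.88 in CKO hearts, again with no overlap. Cox6a2 made up 85.7% ± 2.55 and 78.5% ± 6.22 of its pair with Cox6a1, and here CKO 1 (84.6%) lay among the controls. All 3 muscle isoforms thus had a lower mean share in CKO hearts. Each exact 2-sided permutation test over 20 arrangements can give no p under 0.1, and p was 0.1 for Cox7a1 and Cox8b (0.175 adjusted over 7 shares) and 0.2 for Cox6a2 (0.28 adjusted). Leaving out 1 library in turn kept the Cox7a1 difference between -23.6 and -15.4 percentage points and the Cox8b difference between -14.1 and -7.17. Cox4i2, a minor isoform of subunit IV, stayed under 2.2% of its pair in every library (exact permutation p = 0.8).

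**Figure D2:**
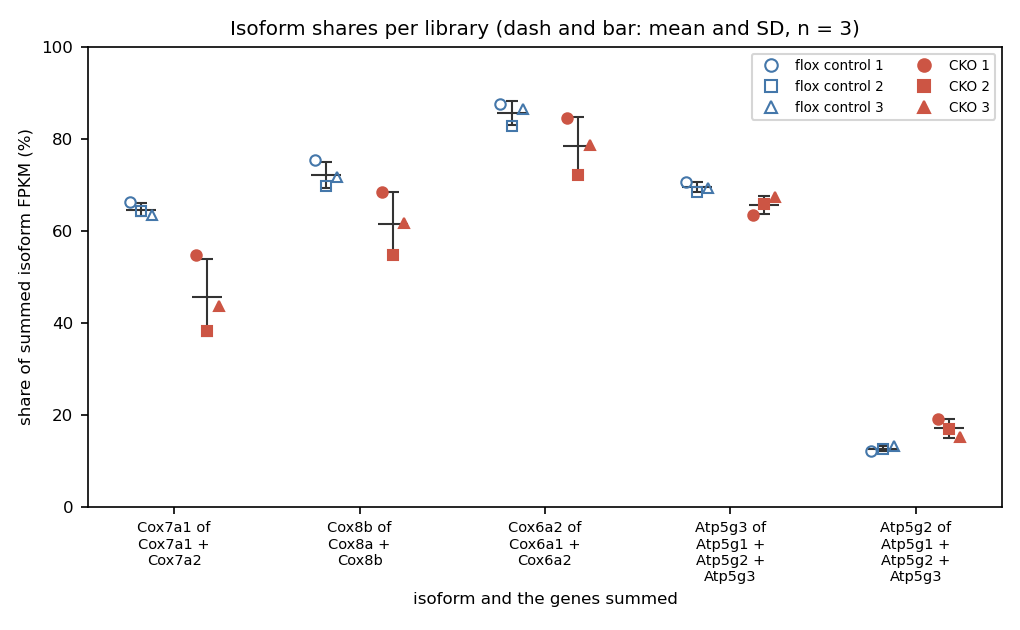
Share of the summed FPKM of an isoform group taken by 1 isoform (y axis, percent) for 5 isoforms (x axis); symbols are single libraries, open blue for flox control and filled red for CKO, with the mean as a dash and the SD as a bar (n = 3 each). The Cox7a1, Cox8b and Atp5g3 shares of the CKO libraries lie below all controls, and the Atp5g2 share above them.

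Complex V had 14 of 15 genes below zero with a median log2 fold change of -0.36, and 0 were called by limma on log2(FPKM + 1) or by voom, while 5 had an unadjusted p under 0.05 (Atp5f1, Atp5g1, Atp5g3, Atp5h and Atp5k). The catalytic head genes Atp5a1 (alpha), the most abundant member, and Atp5b (beta) measured 1502 ± 136 and 1327 ± 103 FPKM in controls, against 1178 ± 195 and 1041 ± 186 FPKM in CKO hearts, both 0.785 times the control mean with CKO 3 among the controls. The gamma and epsilon genes Atp5c1 (463 ± 36.4 and 366 ± 45.2 FPKM) and Atp5e (202 ± 9.27 and 164 ± 22.7 FPKM) were separated, and the delta gene Atp5d was not. All 5 head genes had log2 fold changes between -0.40 and -0.30.

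Peripheral stalk genes held the lowest adjusted p values of complex V. Atp5h, stalk subunit d, measured 431, 431 and 409 FPKM across flox controls 1 to 3, against 275, 255 and 352 FPKM across CKO 1 to 3 (log2 fold change -0.54, SE 0.16, limma adjusted p = 0.075). Atp5f1, stalk subunit b, measured 220, 233 and 189 FPKM across flox controls 1 to 3, against 134, 151 and 166 FPKM across CKO 1 to 3 (-0.51, SE 0.14, 0.0645). Both were separated without passing, as was Atp5o, the subunit that joins stalk and head (267 ± 16.8 and 213 ± 29.6 FPKM, adjusted p = 0.188), while Atp5j overlapped. Without CKO 3, Atp5h passed (limma adjusted p = 0.0493). The membrane subunits Atp5k, Atp5j2 and Atp5l overlapped with the controls, at log2 fold changes of -0.49, -0.34 and -0.18.

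The 3 genes for subunit c of the rotor ring had unequal fold changes. Atp5g3 measured 666, 725 and 576 FPKM across flox controls 1 to 3, against 406, 442 and 554 FPKM across CKO 1 to 3, and Atp5g1 measured 163, 200 and 144 FPKM and 112, 114 and 144 FPKM in the same order. Both were at lower levels without overlap, Atp5g1 only narrowly, and neither passed (limma adjusted p = 0.125 and 0.143). Atp5g2 measured 114, 133 and 111 FPKM across flox controls 1 to 3, against 121, 114 and 124 FPKM across CKO 1 to 3, with the CKO values inside the control range (log2 fold change 0.01, SE 0.12). As a share of the summed subunit c transcripts, Atp5g2 made up 12.7% ± 0.611 in controls and 17.0% ± 1.96 in CKO hearts and Atp5g3 69.5% ± 1.07 and 65.6% ± 1.96 (SD, n = 3 each). Both shares were separated between the groups (exact 2-sided permutation p = 0.1 for each, 0.175 adjusted), whereas that of Atp5g1 overlapped (17.8% ± 0.928 and 17.3% ± 0.2503, p = 0.6). The summed level of the 3 genes was 944 ± 113 FPKM in controls, against 711 ± 98.0 FPKM in CKO hearts.

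**Figure D3:**
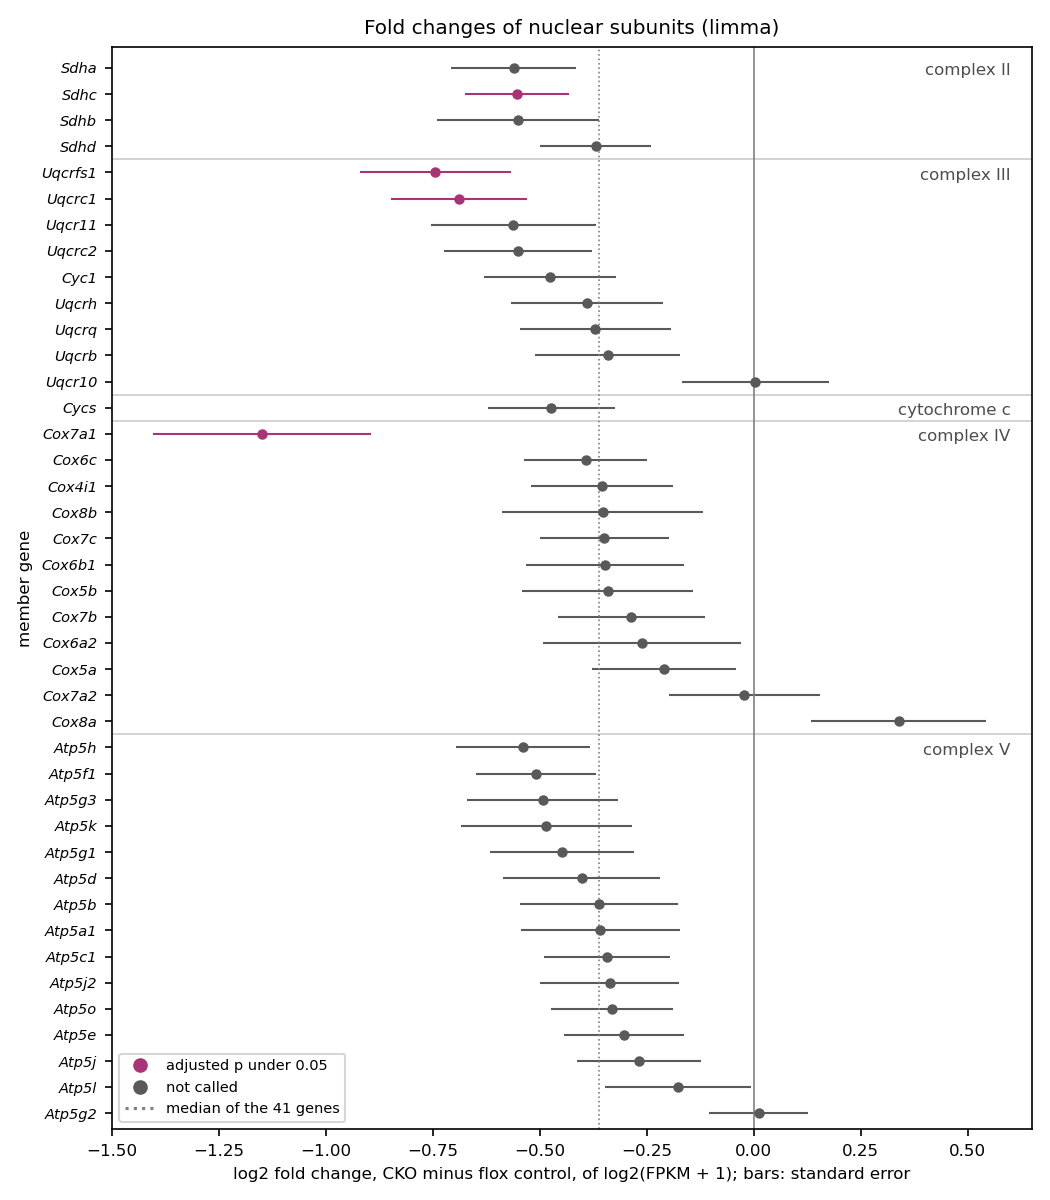
Log2 fold change of each of the 41 genes on the log2(FPKM + 1) scale, CKO minus flox control (x axis), sorted within each complex (y axis); bars are limma standard errors, purple points passed at adjusted p under 0.05, the solid line is 0 and the dotted line the median of -0.36. Most points lie near the median, Cox7a1 lies at -1.15, and Uqcr10, Cox7a2, Cox8a and Atp5g2 lie near or above 0.

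Subunits encoded in the mitochondrial genome gave no calls. None of the 6 (mt-Cytb of complex III, mt-Co1, mt-Co2 and mt-Co3 of complex IV, mt-Atp6 and mt-Atp8 of complex V) passed with limma or voom, 0 had an unadjusted p under 0.05, and their median log2 fold change was -0.08. They varied widely among CKO hearts: mt-Co3 measured 752, 1378 and 1313 FPKM across flox controls 1 to 3, against 1273, 267 and 2016 FPKM across CKO 1 to 3. The group median of the 6 genes stood at 1.13, 0.582 and 1.29 times the control mean in CKO 1 to 3, so CKO 2 was low and the other CKO libraries were not. The difference between nuclear and mitochondrial genes was not tested. Nuclear FPKM amounted to 14.1% ± 1.68 of mitochondrially encoded FPKM for complex III in controls and 10.6% ± 1.39 in CKO hearts, and to 14.6% ± 1.92 and 14.7% ± 2.12 for complex IV. For complex V it amounted to 410% ± 65.7 and 299.9% ± 177, with CKO 2 (501%) above all controls and CKO 1 (166%) and CKO 3 (233%) below them. The mitochondrial genes differed far in level: mt-Co1 and mt-Cytb averaged 46487 and 26647 FPKM in controls. There mt-Co2, mt-Co3 and mt-Atp6 averaged 1564, 1148 and 1563 FPKM, and mt-Atp8 34.8 FPKM (91 to 210 reads per library). Why was not tested, so the complex IV and V percentages may not reflect relative transcript amounts. The complex IV percentage rests mostly on mt-Co1, whose CKO mean was 0.805 times its control mean, with overlapping groups. The CKO means of mt-Co2 and mt-Co3 were 1.02 and 1.03 times theirs.

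**Figure D4:**
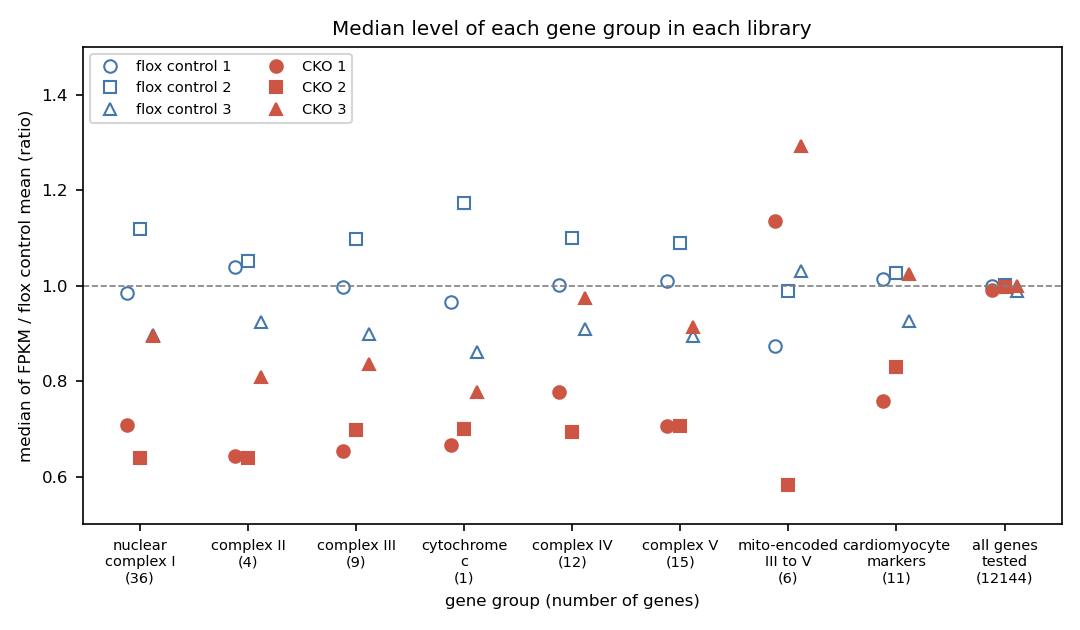
Median over the genes of a group of FPKM divided by the flox control mean (y axis, ratio) in each library, for nuclear complex I, complexes II to V, cytochrome c, mitochondrially encoded subunits, cardiomyocyte markers and all genes tested (x axis, number of genes in brackets); open blue symbols are flox controls and filled red symbols CKO. CKO 1 and CKO 2 lie below the controls in every nuclear respiratory group, and CKO 3 lies between 0.777 and 0.973 there. Under the deposited scaling the median of all genes is near 1 in every library.

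Assembly factors, which build the complexes but are not part of them, were listed for comparison and 34 of 36 were tested. Of these 7 fell (20.6%, beside 5.49% of all genes), 2 rose (beside 5.69% of all genes) and 25 did not pass, with a median log2 fold change of -0.14. Without CKO 3 the count was 3 lower and 0 higher, and over the other single libraries left out it was 2 to 5 lower and 0 or 1 higher. By complex, 3 of 6 genes fell for complex III and 2 of 3 for complex V, with 0 of 4 for complex II (limma and voom, 0 with an unadjusted p under 0.05) 1 lower and 2 higher of 20 for complex IV, and 1 of 1 for the heme lyase of cytochrome c. Uqcc1, which helps to make cytochrome b, measured 20.2, 21.7 and 20.9 FPKM across flox controls 1 to 3, against 12.5, 13.5 and 13.1 FPKM across CKO 1 to 3 (log2 fold change -0.64, SE 0.08, limma adjusted p = 0.00774). Tmem70, needed for the c ring of ATP synthase, measured 46.2, 51.0 and 43.7 FPKM across flox controls 1 to 3, against 27.6, 26.5 and 28.1 FPKM across CKO 1 to 3 (-0.75, SE 0.10, 0.00819). In both genes CKO 3 lay with CKO 1 and CKO 2, unlike in most subunit genes, and both calls held whichever library was left out. With every library set to the same sum (TPM) the assembly count was 2 lower and 1 higher (Uqcc1 adjusted p = 0.0549), and at the same level of cardiomyocyte markers it was 0 lower and 3 higher (Uqcc1 0.112, Tmem70 0.054).

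Lyrm7 and Ttc19, which act on the Rieske protein, fell from 4.62 ± 0.118 to 2.76 ± 0.268 FPKM and from 8.06 ± 0.313 to 5.50 ± 0.782 FPKM (limma adjusted p = 0.0119 and 0.0332). Hccs, the enzyme that attaches heme to cytochrome c, fell from 16.9 ± 1.23 to 11.7 ± 1.66 FPKM (0.0421), Atpaf2, a chaperone of the ATP synthase head, from 17.5 ± 1.36 to 13.0 ± 0.2499 FPKM (0.0340), and Taco1, a translational activator of mt-Co1, from 33.1 ± 6.22 to 20.3 ± 1.34 FPKM (0.0365). In the other direction Cox19, a copper-related assembly factor of complex IV, measured 7.62, 9.79 and 8.07 FPKM across flox controls 1 to 3, against 13.0, 14.7 and 16.0 FPKM across CKO 1 to 3 and rose by a log2 value of 0.71 (SE 0.12, 0.0174). Cox20, a chaperone of mt-Co2, rose from 1.24 ± 0.113 to 1.998 ± 0.109 FPKM (limma adjusted p = 0.0414), on only 17 to 35 reads per library. These 7 calls depended on the libraries. That of Lyrm7 was lost without flox control 1 (0.0537) or 3 (0.0518), and that of Cox19 without flox control 1 (0.0745) or 3 (0.0691), CKO 2 (0.0534) or CKO 3 (0.0555). Atpaf2 and Cox20 lost their calls without any 1 library (up to 0.105 and 0.144, without flox control 1). Ttc19 kept its call only without CKO 2 (lost at up to 0.11, without flox control 3), and Hccs likewise (up to 0.135, without flox control 1), while Taco1 kept its call only without flox control 3 (up to 0.125, without flox control 1).

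Among further isoforms and associated proteins, 0 of 9 tested genes passed with limma, and voom called 1 higher. With limma, 4 had an unadjusted p under 0.05. Of these, Usmg5, Ndufa4 and Atp5s were at lower levels without overlap (log2 fold changes -0.46, -0.44 and -0.39), and Atpif1 was at higher levels. Atpif1, the inhibitor protein of ATP synthase, had separated groups in the direction opposite to the subunits, at 58.2, 65.4 and 67.4 FPKM across flox controls 1 to 3, against 92.5, 76.8 and 98.7 FPKM across CKO 1 to 3 (log2 fold change 0.48, SE 0.13, limma adjusted p = 0.0635). Of the carriers that exchange ADP, ATP and phosphate, 0 of 3 passed with limma or voom (1 with an unadjusted p under 0.05), and the heart ADP/ATP carrier Slc25a4 measured 1891 ± 309 and 1787 ± 473 FPKM. The 36 nuclear complex I subunits resembled the members in direction, with all 36 fold changes negative and a median of -0.42. Called lower were 4 of them (11.1%, beside 5.49% of all genes: Ndufs1, Ndufab1, Ndufb2 and Ndufb10), or 3 without CKO 3 and 0 or 1 without any other library. The count was 14 with the same sum without mitochondrially encoded genes, 0 with no filter or in the blocked fit, and 1 at the same cardiomyocyte marker level, where the median was -0.15. Of 13 transcription regulators of respiratory genes, 1 fell (7.69%, beside 5.49% of all genes) and 1 rose. The ETS factor gene Gabpa fell from 10.7 ± 0.524 to 7.03 ± 0.177 FPKM (limma adjusted p = 0.0107). That call of Gabpa was lost without flox control 1 (0.0551), with the same sum (0.0706, or 0.0637 with the same genes tested) and at the same cardiomyocyte marker level (0.206). Esrrb, a receptor gene of the ERR family, rose from 2.62 ± 0.541 to 4.52 ± 0.229 FPKM (limma adjusted p = 0.0265). The Esrrb call was lost without flox control 1 (0.103), flox control 3 (0.0785), CKO 2 (0.0642) or CKO 3 (0.0727), with no filter (0.0667) and with the replicate block (0.0587). Gabpa shares 397 exon bases with Atp5j on the opposite strand, and the 2 sources cannot be told apart there, since strand is not described. Nrf1 measured 1.64 ± 0.0197 and 1.72 ± 0.142 FPKM, and Ppargc1a, a coactivator of mitochondrial biogenesis, 22.8 ± 10.7 and 18.3 ± 5.33 FPKM.

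Level and gene length varied widely among the 41 members and were described beside the fold changes. Control means ranged from 54.1 FPKM for Atp5l to 1502 FPKM for Atp5a1, behind 2149 to 103036 reads per gene and library. Across the 41 genes, Spearman's rho was -0.23 between gene length and log2 fold change and -0.04 between level and log2 fold change, given as a description since the genes share 6 libraries. Among the 404 tested genes averaging 100 FPKM or more the median log2 fold change was -0.05 and 6.93% were called lower. Another gene overlapped 17 of the 41 members, and 12 shared exon bases with it. None of the 4 called members had an overlapping gene. Processed pseudogenes named as a member followed by -ps reached at most 1.97 FPKM in any library. Pseudogenes with other names were not searched for. One of them, Gm12854, overlaps Uqcrh without shared exon bases and averaged 7.27 FPKM in controls and 6.47 FPKM in CKO hearts.

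One scaling changed how far the members stood from zero. With every library set to the same geometric mean of the cardiomyocyte markers, the median of all genes moved to 0.23 and that of the members to -0.09, so the members stood 0.32 below all genes, against 0.37 below with the deposited scaling. Relative to all genes the complexes then stood at -0.51 (II), -0.43 (III), -0.30 (IV) and -0.32 (V). Called genes were split 209 lower of 1579 there (13.2%), against 667 of 1358 (49.1%). Cox7a1 and Uqcrfs1 were still called lower, Sdhc (limma adjusted p = 0.172) and Uqcrc1 (0.0525) were not, and Cox8a was called higher. Fold changes of Cox5a, Cox6a2, Cox7a2, Atp5j and Atp5l were positive at that scaling. The 11 markers themselves did not move evenly under the deposited scaling. Pln, Tnni3 and Ryr2 were separated, at log2 fold changes of -0.90, -0.73 and -0.72. The other 8 overlapped, from -0.29 (Myl3) to 0.23 (Actn2). The marker level is thus set partly by genes that were lower themselves, and equal cardiomyocyte content was not tested.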

How the data were processed

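Per the labels' protocols, RNA from 6 hearts was selected with poly-T beads, primed with random hexamers, size-selected at 370 to 420 bp and read at both ends (150 bp). How strand was treated is not stated. The authors deposited FPKM values for 54532 genes. Per the submitters' processing notes, the tools were HISAT2 2.0.5, CASAVA, DESeq2 1.20.0 and featureCounts 1.5.0-p3, with GRCm38.p6; which tool made which value is not given in the sources used here. FPKM times gene length was a whole multiple of 1 step per library in 100% of values (tolerance 0.001), so reads were recovered. Their totals were 17434296 to 19360428 per library and differed from the scaling values that the steps imply.

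The 41 members and the comparison lists were chosen with earlier results of these data known. The 12144 genes averaging 1 FPKM or more were tested on log2(FPKM + 1), a scale that understates changes of low genes, with limma 3.58.1 in R 4.3.3. The fit used a variance trend and genotype as the only factor, and p-values were adjusted over all genes by Benjamini-Hochberg (2-sided). No p was adjusted over the list alone. Isoform shares of summed FPKM were compared by exact 2-sided permutation. Named genes are Ythdc1, all 41 members, isoform partners and mitochondrially encoded subunits. Up to 4 called genes (otherwise 2) with the smallest adjusted p were also named per comparison list. Outside this rule, Tnni3, Tcf21, Myl7, Myl4, Sln, Nppa, Myod1, Xist, Ddx3y, Nrf1 and Ppargc1a were chosen as checks or after their values were seen. So were Ryr2, Pln, Myl3, Actn2, Col1a1, Col1a2, Pdgfra, Usmg5 and Ndufa4. A second row named Atp5o, at 0 in all libraries, was left out. Tested on simulated data, the procedure recovered genes changed 2-fold or 4-fold, but the share of false calls was above the adjusted p threshold. Recovery of smaller changes, such as those of all members except Cox7a1, was not tested. Alternatives covered the pseudocount, the filter, 3 scalings, variance settings, voom, a replicate block, protein-coding genes and each library left out; 2 rescalings were added after the data were seen. Gene positions are as deposited; 40 of 41 members had identical bounds in GENCODE release M21. Python 3.11.15, pandas 2.3.3, scipy 1.17.1 and matplotlib 3.10.9 were used. Splicing, m6A and protein levels were not analysed here.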

Additional observations from a re-analysis of the deposited data

How the results depend on the processing

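Calls of single members depended on the settings more than their direction did. Members called lower numbered 0 with no filter on low values (798 of 27031 genes called, 1.52% lower). They numbered 12 with every library set to the same sum without mitochondrially encoded genes (4.90% of all genes lower), or 11 with the same genes tested, a version added after the data were seen. At the same cardiomyocyte marker level 2 were called lower and 1 higher (1.71% of all genes lower). With 1 library left out 0 to 3 were called lower (1.25% to 5.71% of all genes). By complex, the same sum without mitochondrially encoded genes gave 3 for II, 4 for III and 3 for V (3, 4 and 2 with the same genes tested), and no filter gave 0 for II, III and IV. The same marker level gave 0 for II and 1 for III, and no variance trend gave 2 for II and 1 for V. With 1 library left out the counts were 0 for II, 0 to 2 for III, 0 to 1 for IV and 0 to 1 for V, and 316 to 1492 genes were called in all. The cause of these shifts was not tested. Some of these fits also held fewer samples or more genes. Calls were not always fewer with fewer samples, since leaving out CKO 1 gave 1492 called genes against 1358 in the main fit.

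The labels do not say whether the replicate numbers pair the samples, and correlations over 3 libraries per group cannot settle it. Deviations from the group means correlated at 0.139, 0.0597 and -0.00548 for same-numbered libraries, and flox control 3 correlated best with CKO 2 (0.141). With the replicate number as a block, 715 genes (2.87% of all genes lower) and 0 members were called (0 for II, III and IV), with 9 members at an unadjusted p under 0.05.

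The median log2 fold change of the members was -0.090 at the same cardiomyocyte marker level (-0.28 for II, -0.21 for III, -0.074 for IV and -0.087 for V), and ranged from -0.50 to -0.28 with 1 library left out. At that marker level the sign turned for Cox5a (0.060), Cox6a2 (0.0097), Atp5j (0.00085), Atp5l (0.089), Cox7a2 (0.25), Sdhaf2 (0.092), mt-Co2 (0.15) and mt-Cytb (0.23). Cox7a2 and mt-Cytb also turned with the same sum, or TPM (0.031 and 0.016, the same with the same genes tested), and mt-Atp8 with voom (-0.024). With 1 library left out, estimates crossed zero for Cox7a2 (-0.17 to 0.073), Uqcr10 (-0.12 to 0.10), Atp5g2 (-0.040 to 0.090), mt-Cytb (-0.20 to 0.13), mt-Atp8 (-0.15 to 0.32), mt-Atp6 (-0.074 to 0.74), mt-Co3 (-0.92 to 0.53) and mt-Co2 (-0.40 to 0.40). So did the Cox4i2 share (-0.130 to 0.290 percentage points) and the Atp5g1 share (-0.801 to 0.0345). No alternative on sequencing depth was run.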
